A study of Mus musculus with 11 samples.

Results

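A set of 9 genes of cholinergic transmission was followed across 3 kinds of embryonic mouse motor neuron. These are 9 of the 10 genes listed for this purpose: Chat, Slc18a3, Slc5a7, Ache, Chrna3, Chrna4, Chrna7, Chrnb2, Chrnb4 and Chrm2. A gene counted as measured when the array held a probe set annotated with its symbol and no other, and the probe set with the highest mean over all arrays stood for the gene. Chrm2 had no such probe set and was not analysed here. The 9 measured genes have 17 probe sets, among 45037 probe sets tested and 18193 genes with a probe set of their own.

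All RNA came from C57/BL6 embryos that carried the Hb9::GFP reporter, in which regulatory sequence of the motor neuron gene Hb9 (Mnx1) drives green fluorescent protein, and every cell was sorted by fluorescence from dissociated spinal cord. The 4 phrenic arrays hold neurons filled with a rhodamine dextran through the phrenic nerve, which supplies the diaphragm. The 3 LMC radial arrays hold neurons of the lateral motor column filled through the radial nerve of the forelimb. The 4 C3-C5 GFP-only arrays hold cells of cervical segments C3 to C5 that had the reporter without the dye. The LMC radial labels name no segment, so in comparisons with these arrays segment and cell type cannot be told apart. No embryonic day is given, and nothing in the labels ties a replicate to an embryo, a litter or a pool, so the p-values take the spread between arrays as their error, and that spread may be technical.

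Motor neurons release acetylcholine onto muscle and, through axon branches within the spinal cord, onto interneurons and other motor neurons. Choline acetyltransferase makes the transmitter, a vesicular transporter loads it into vesicles, acetylcholinesterase splits it, and a choline transporter takes the choline back up. It acts on nicotinic receptors, which are ion channels whose mix of subunits sets their properties, and on muscarinic receptors, which signal through G proteins.

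The 3 members that passed a test between types were Chrna3, Chrnb4 and Ache, and the 250 bases before the annotated start of each are shown so that the sequences can be set beside those values. They are RefSeq sequences of build GRCm38.p6, written 5′ to 3′ on the strand of the gene. Capitals mark the letters GGGCGG or their reverse complement CCGCCC, the core of a GC box. Chrna3 lies on the minus strand (chr9:55026563-55026812), Chrnb4 on the minus strand (chr9:55048545-55048794) and Ache on the plus strand (chr5:137288004-137288253).
Chrna3 promoter: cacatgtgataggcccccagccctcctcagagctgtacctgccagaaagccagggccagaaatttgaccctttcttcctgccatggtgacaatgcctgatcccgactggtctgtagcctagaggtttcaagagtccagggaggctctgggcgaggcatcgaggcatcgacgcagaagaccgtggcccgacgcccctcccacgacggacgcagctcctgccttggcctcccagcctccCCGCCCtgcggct
Chrnb4 promoter: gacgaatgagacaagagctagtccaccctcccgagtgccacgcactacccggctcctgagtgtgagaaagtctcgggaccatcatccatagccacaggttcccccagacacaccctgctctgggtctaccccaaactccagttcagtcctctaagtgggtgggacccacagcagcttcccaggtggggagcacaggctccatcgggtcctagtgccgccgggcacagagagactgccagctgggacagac
Ache promoter: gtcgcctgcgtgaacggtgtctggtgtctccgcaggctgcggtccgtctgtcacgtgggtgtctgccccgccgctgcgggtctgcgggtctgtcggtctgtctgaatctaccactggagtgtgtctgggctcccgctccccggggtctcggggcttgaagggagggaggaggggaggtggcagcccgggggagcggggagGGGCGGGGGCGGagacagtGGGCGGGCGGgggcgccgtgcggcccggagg
The Chrna3 window held 1 match, the Chrnb4 window 0 and the Ache window 4, of which overlapping ones were counted separately. GC content was 63.2% for Chrna3, 61.2% for Chrnb4 and 73.6% for Ache. On either strand GGGCGG occurred in 6 of the 10 member windows and in 32.7% of 32851 RefSeq windows of the same length. The letters TAAT, the core bound by many homeodomain proteins, occurred in 2 of the 10 and in 54.9% of all windows, and CAGCTG, an E box, in 2 of the 10 and in 13% of all. Chrnb4 and Chat each held 1 CAGCTG. These are matches of letters, not measured sites.

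Values are log2 expression values. The median probe set of an array had 4.48 to 4.63, and values below 5 are treated as near that level. The labelled cell type was checked against 10 motor neuron marker genes, 3 of which (Chat, Slc18a3 and Slc5a7) are also members. Their mean was 9.30 to 9.55 in the phrenic arrays, 8.87 to 9.07 in the LMC radial arrays and 9.47 to 9.62 in the C3-C5 GFP-only arrays. Skeletal muscle markers averaged 3.58 to 3.97, 3.83 to 3.92 and 3.64 to 3.81 in the same order of types, and 8 of the 10 were below 5 in every array. For 6 of these 10 the LMC radial arrays did not overlap the phrenic arrays, as for 18.7% of all probe sets. For 6 they did not overlap the C3-C5 GFP-only arrays, as for 23.1% of all. Over all arrays 9 of the 10 had a mean below 5. Myod1, a regulator of muscle formation, passed as higher in LMC radial, with 4.72 there against 3.86 in phrenic (phrenic minus LMC radial -0.87, adjusted p = 0.0321) and 3.83 in C3-C5 GFP-only arrays (LMC radial minus C3-C5 GFP-only 0.90, adjusted p = 0.0399), and its second probe set passed in the same directions. These Myod1 means are all below 5. The phrenic arrays also spread widely in other marker lists. Over 16 mesenchyme and cartilage markers the means were 5.29 to 6.72 in phrenic, 5.16 to 6.18 in LMC radial and 4.56 to 4.93 in C3-C5 GFP-only arrays. Over 8 progenitor markers they were 5.92 to 7.42, 5.76 to 6.40 and 5.54 to 5.84, with phrenic replicate 4 the highest array in both lists. Of the mesenchyme list Postn, Fn1 and Foxc1, and of the cell cycle list Cdk1, passed as higher in phrenic than in C3-C5 GFP-only neurons (adjusted p = 0.0148 to 0.0384), where 1.96% of all probe sets passed. The second Foxc1 probe set also passed there (1.41, limma adjusted p = 0.0391), and the second Fn1 probe set did not (0.18, limma adjusted p = 0.789). Replicates 2 and 3 of the phrenic and of the C3-C5 GFP-only type formed a set of 4 arrays whose 25th percentile over all probe sets, 3.18 to 3.20, was below the 3.26 to 3.38 of the other 7, which include all LMC radial arrays. The difference between the 3′ and 5′ probe sets of Actb, a measure of RNA integrity, was 1.05 to 2.15 in phrenic, 1.01 to 1.12 in LMC radial and 1.07 to 1.98 in C3-C5 GFP-only arrays. The part of such other cells in the results was not tested, and values from fits with the mesenchyme mean or the Actb difference as a covariate are given beside the members whose call they changed. The mesenchyme means of the C3-C5 GFP-only arrays overlapped those of neither other type. In comparisons with C3-C5 GFP-only arrays, the mesenchyme covariate and cell type therefore cannot be told apart. In the plot of marker lists the phrenic points scatter in the mesenchyme, progenitor, interneuron and cell cycle panels, and the C3-C5 GFP-only points lie close together.

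**Figure D1:**
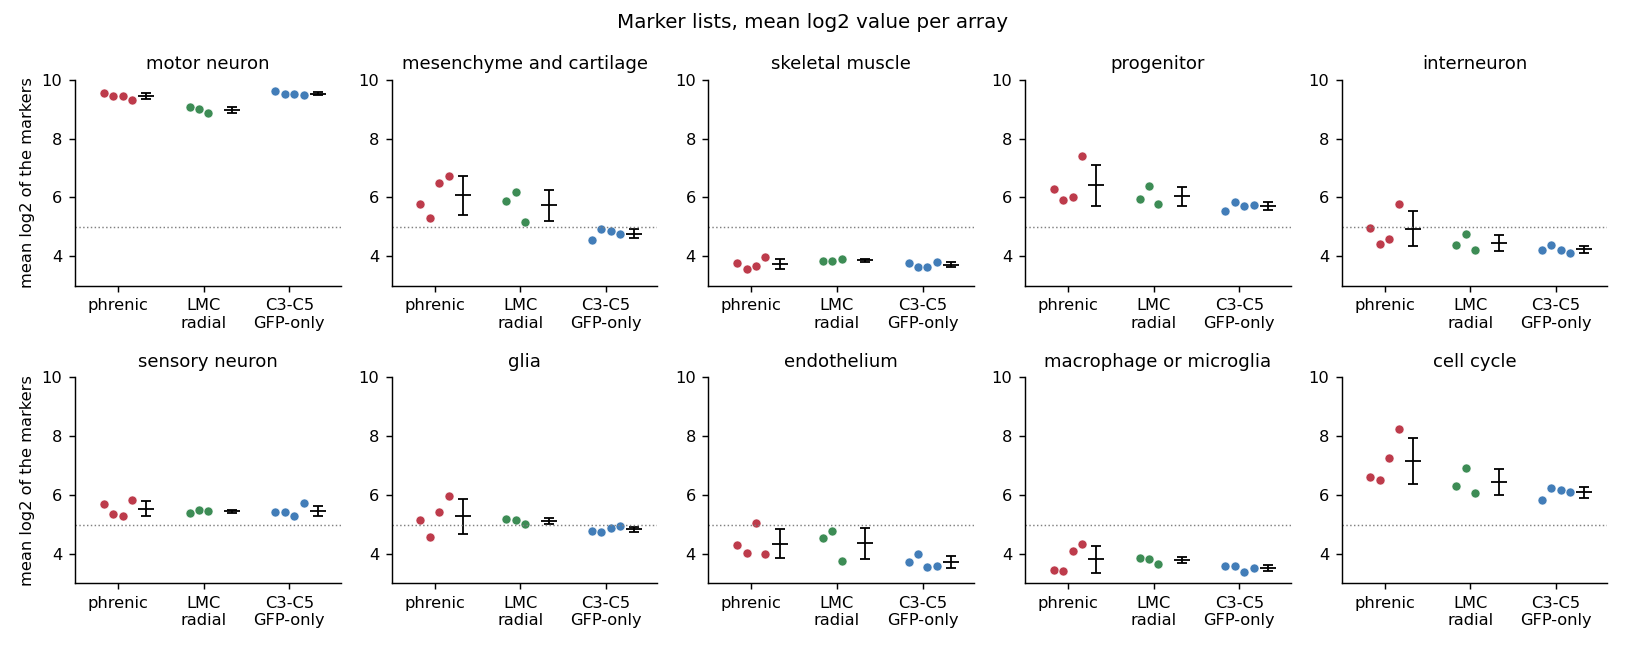
Mean log2 value of each marker list per array (points), with the mean ± SD of each type beside them, for 4 phrenic, 3 LMC radial and 4 C3-C5 GFP-only arrays. Motor neuron markers lie between 8.87 and 9.62 on every array, skeletal muscle markers below 4, and phrenic replicate 4 is the highest array for progenitor markers at 7.42.

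Differences are given on the log2 scale as fitted in limma with their SE, and adjusted p-values are over all 45037 probe sets of a comparison. Between phrenic and LMC radial neurons, 2 of the 9 members passed at an adjusted p under 0.05, and both were higher in phrenic: Ache and Chrna3. Of all probe sets 6.61% passed in that comparison. LMC radial against C3-C5 GFP-only neurons gave 3 passing members, all lower in LMC radial: Ache, Chrna3 and Chrnb4, with 3.76% of all probe sets passing. Between phrenic and C3-C5 GFP-only neurons 1 member passed, Chrnb4, which was lower in phrenic, and 1.96% of all probe sets passed. By these fits Ache and Chrna3 were lower in LMC radial than in each of the other types, and Chrnb4 was higher in C3-C5 GFP-only than in each. In these sorted samples fewer cells of a type and less RNA per cell cannot be told apart. The median difference over the 9 members was 0.38 for phrenic minus LMC radial, -0.47 for LMC radial minus C3-C5 GFP-only and -0.22 for phrenic minus C3-C5 GFP-only, where the medians over all probe sets were -0.013, 0.0035 and -0.00038.

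Arrays of the 2 types did not overlap for 5 of the 9 members between phrenic and LMC radial (Chat, Ache, Chrna3, Chrna7 and Chrnb4), as for 18.7% of all probe sets. Between LMC radial and C3-C5 GFP-only they did not overlap for 5 (Chat, Slc18a3, Ache, Chrna3 and Chrnb4), as for 23.1% of all probe sets. Between phrenic and C3-C5 GFP-only they did not overlap for Chrnb4 alone, as for 7.49% of all.

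**Figure D2:**
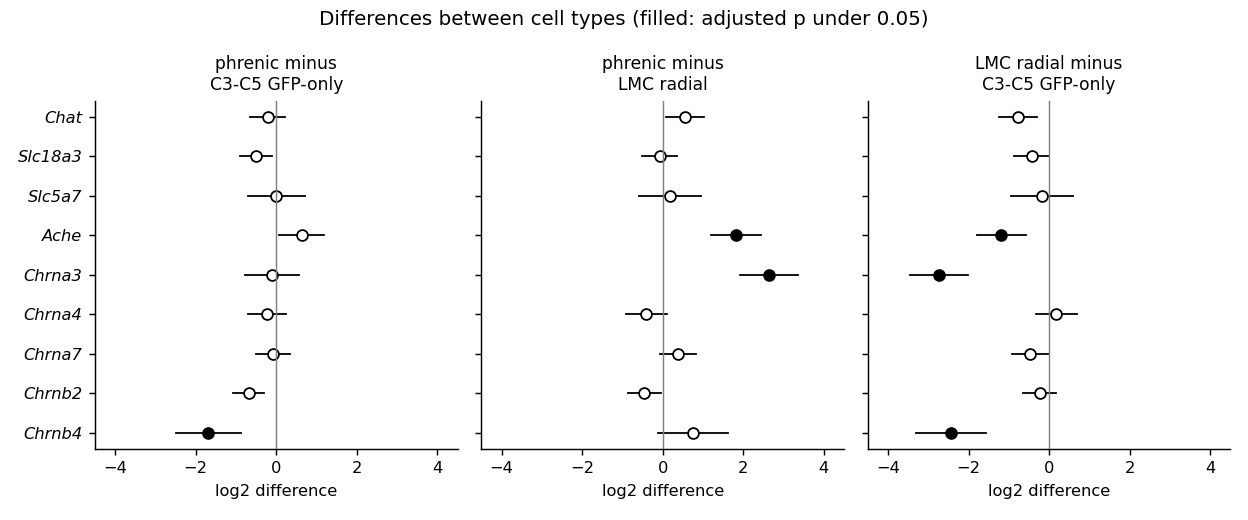
Log2 difference of each member in the 3 comparisons between types, with the 95% confidence interval of the fit. Filled points have an adjusted p under 0.05. They are Chrnb4 at -1.69 in the left panel, Ache at 1.82 and Chrna3 at 2.64 in the middle panel, and Ache at -1.19, Chrna3 at -2.74 and Chrnb4 at -2.43 in the right panel.

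Chat, choline acetyltransferase, had 5.68, 5.74, 5.16 and 5.33 in phrenic replicates 1 to 4. It had 4.9998, 5.03 and 4.74 in LMC radial and 6.09, 5.81, 5.68 and 5.18 in C3-C5 GFP-only arrays. Every LMC radial array lay below every array of the other types, and the other types overlapped. Phrenic minus LMC radial was 0.55 ± 0.21 (limma adjusted p = 0.155), LMC radial minus C3-C5 GFP-only was -0.77 ± 0.21 (adjusted p = 0.0747) and phrenic minus C3-C5 GFP-only was -0.22 ± 0.20 (adjusted p = 0.749). The order of means was C3-C5 GFP-only, phrenic, LMC radial, and no neighbours in it passed the test. Without C3-C5 GFP-only replicate 4 the difference of LMC radial from C3-C5 GFP-only was -0.94 with an adjusted p of 0.0311. Over the 26 alternative fits of this difference 4 passed.

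Slc18a3 encodes the vesicular acetylcholine transporter and lies within the Chat gene on the same strand of chromosome 14. Its values were 8.11, 7.71, 7.49 and 7.49 in phrenic, 7.75, 7.72 and 7.85 in LMC radial and 8.68, 8.002, 7.97 and 8.21 in C3-C5 GFP-only arrays. The C3-C5 GFP-only arrays lay above all LMC radial arrays and overlapped the phrenic ones only through phrenic replicate 1. Phrenic minus C3-C5 GFP-only was -0.51 ± 0.18 (adjusted p = 0.223), LMC radial minus C3-C5 GFP-only was -0.44 ± 0.19 (adjusted p = 0.239) and phrenic minus LMC radial was -0.08 ± 0.19 (adjusted p = 0.86). The 95% interval of the last difference ran from -0.50 to 0.35. Although Chat and Slc18a3 share a locus, Chat was lowest in LMC radial and Slc18a3 lowest by its mean in phrenic arrays, and the difference between these patterns was not tested.

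Slc5a7, the choline transporter, measured 5.81, 5.23, 5.38 and 3.87 in phrenic, 4.89, 5.01 and 4.76 in LMC radial and 4.95, 5.17, 5.09 and 5.07 in C3-C5 GFP-only arrays. Most arrays were close to 5, and phrenic replicate 4 was the lowest of all. Phrenic minus C3-C5 GFP-only was 0.00043 ± 0.32 (adjusted p = 1, 95% interval -0.71 to 0.71), and phrenic minus LMC radial was 0.18 ± 0.35 (adjusted p = 0.807). Leaving out phrenic replicate 4, the array highest in progenitor markers, gave 0.58 for phrenic minus LMC radial with an adjusted p of 0.0417. That difference passed in 1 of 26 alternatives.

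Ache encodes acetylcholinesterase, the enzyme that ends the action of acetylcholine. Its values were 6.58, 7.004, 7.34 and 6.27 in phrenic arrays, 4.83, 4.71 and 5.39 in LMC radial arrays and 6.30, 6.45, 6.27 and 5.65 in C3-C5 GFP-only arrays. Every LMC radial array lay below every other array, while the other types overlapped. Ache was higher in phrenic than in LMC radial neurons by 1.82 ± 0.28, at least 3.17-fold with values below 5 raised to 5 (limma adjusted p = 0.00319). It was lower in LMC radial than in C3-C5 GFP-only neurons by -1.19 ± 0.28, at least 2.05-fold (adjusted p = 0.041). Phrenic minus C3-C5 GFP-only was 0.63 ± 0.26 and did not pass (adjusted p = 0.316, 95% interval 0.064 to 1.19). From high to low the means were in the order phrenic, C3-C5 GFP-only, LMC radial, and the first 2 did not differ beyond the test's threshold.

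The LMC radial and C3-C5 GFP-only call for Ache was close to the threshold. It was lost without phrenic replicate 2 (adjusted p = 0.0509), LMC radial replicate 1 (0.132) or 2 (0.136), or C3-C5 GFP-only replicate 1 (0.0792), 2 (0.118) or 3 (0.121), with quantile normalization (-0.95, adjusted p = 0.0805), and with values below 5 raised to 5 (-1.04, adjusted p = 0.22). The difference of phrenic from LMC radial held without any single array, and in the 7 arrays of higher 25th percentile the difference was 1.44 with an adjusted p of 0.0678. In those 7 arrays LMC radial minus C3-C5 GFP-only was -0.999 with a limma adjusted p of 0.274. The LMC radial and C3-C5 GFP-only call passed in 14 of 26 alternatives. Ache differed between LMC radial and C3-C5 GFP-only by -0.90 (adjusted p = 0.299) with the mesenchyme marker mean as a covariate and by -0.94 (adjusted p = 0.173) with the Actb difference.

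Chrna3 encodes the nicotinic α3 subunit, which with β4 forms the main receptor of autonomic ganglia. Its values were 7.57, 6.32, 6.20 and 7.47 in phrenic, 4.24, 4.38 and 4.12 in LMC radial and 6.75, 6.74, 7.22 and 7.25 in C3-C5 GFP-only arrays. All LMC radial arrays were below 5 and no array of the other types was below 6. Chrna3 was 2.64 ± 0.33 higher in phrenic than in LMC radial neurons, at least 3.70-fold (limma adjusted p = 0.00086). It was lower in LMC radial than in C3-C5 GFP-only neurons by -2.74 ± 0.33, at least 3.97-fold (adjusted p = 0.00181). The phrenic difference from LMC radial passed in 26 of 26 alternatives. The LMC radial difference from C3-C5 GFP-only passed in 25 of 26, and with values below 5 raised to 5 it was -1.99 with an adjusted p of 0.0561. Among these alternatives, taking the probe set with the smallest p could not lose a call.

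Phrenic and C3-C5 GFP-only neurons had Chrna3 means of 6.89 ± 0.73 and 6.99 ± 0.28 (SD, n = 4 each), a difference of -0.10 ± 0.30 (adjusted p = 0.946, 95% interval -0.77 to 0.57). The phrenic arrays split, with replicates 1 and 4 high and replicates 2 and 3 low, and the low pair are the phrenic arrays with the lower 25th percentile. Within the arrays of that lower set phrenic averaged 6.26 and C3-C5 GFP-only 6.98, a difference of -0.72 over 2 arrays of each type. Within the higher set phrenic averaged 7.52 and C3-C5 GFP-only 7.0002, a difference of 0.52. The sign thus differed between the sets, and no test was made of that.

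A second Chrna3 probe set had means of 5.97 in phrenic, 5.25 in LMC radial and 5.89 in C3-C5 GFP-only arrays. Its LMC radial arrays also lay below all others, by a narrow margin: the highest was 5.38 and the lowest phrenic array 5.39. The differences were 0.72 ± 0.27 for phrenic minus LMC radial (adjusted p = 0.141) and -0.64 ± 0.27 for LMC radial minus C3-C5 GFP-only (adjusted p = 0.208), so neither passed. The third probe set stayed below 5 on every array.

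Chrnb4 encodes the nicotinic β4 subunit, a partner of α3. It measured 3.54, 3.29, 4.60 and 3.99 in phrenic, 2.96, 3.15 and 3.22 in LMC radial and 4.83, 6.27, 6.14 and 4.92 in C3-C5 GFP-only arrays. Only C3-C5 GFP-only replicates 2 and 3 exceeded 5, and the types did not overlap in any comparison. Chrnb4 was lower in LMC radial than in C3-C5 GFP-only neurons by -2.43 ± 0.40 (limma adjusted p = 0.0087). It was lower in phrenic than in C3-C5 GFP-only neurons by -1.69 ± 0.37 (adjusted p = 0.0433). Because both lower means were below 5, each of these folds is given as at least 1.52. Phrenic minus LMC radial, 0.74 ± 0.40, did not pass (adjusted p = 0.3). The order of means was C3-C5 GFP-only, phrenic, LMC radial.

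Both Chrnb4 calls ended when values below 5 were raised to 5, where the difference was -0.60 from C3-C5 GFP-only in each case (adjusted p = 0.64 for phrenic, 0.748 for LMC radial). The phrenic call was also lost without phrenic replicate 1 (adjusted p = 0.107), 2 (0.0904) or 4 (0.0533), any LMC radial array (0.0675 to 0.0706), or C3-C5 GFP-only replicate 2 (0.125) or 3 (0.139). With replicate number as a block the phrenic difference had an adjusted p of 0.0442 in all 11 arrays and 0.121 in the phrenic and C3-C5 GFP-only arrays alone. The C3-C5 GFP-only arrays above 5 are those with the lower 25th percentile. With the mesenchyme marker mean as a covariate the phrenic difference was -2.48 (0.119). In the lower set phrenic averaged 3.94 and C3-C5 GFP-only 6.20, a difference of -2.26, and in the other set phrenic averaged 3.76 and C3-C5 GFP-only 4.88, a difference of -1.11, over 2 arrays of each type. The second Chrnb4 probe set stayed below 5 on every array and passed in no comparison.

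**Figure D3:**
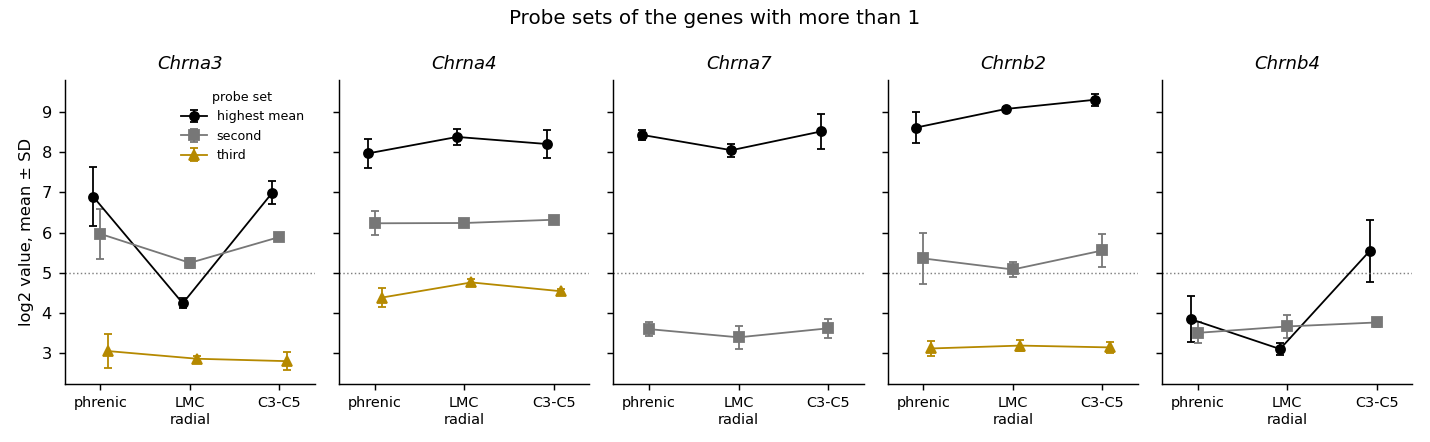
Mean ± SD (log2) of each probe set of the 5 members that have more than 1, by cell type, with the dotted line at 5. The probe set with the highest mean stands for the gene. The second Chrna3 probe set also dips in LMC radial, to 5.25, whereas the second Chrnb4 probe set stays below 4 in all 3 types.

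Chrna4 and Chrnb2 encode the α4 and β2 subunits, which together form the most common nicotinic receptor of the brain. Chrna4 measured 8.29, 8.22, 7.50 and 7.85 in phrenic, 8.59, 8.31 and 8.23 in LMC radial and 8.66, 7.83, 8.03 and 8.29 in C3-C5 GFP-only arrays. The types overlapped throughout. Its differences were -0.41 ± 0.23 for phrenic minus LMC radial (adjusted p = 0.321, 95% interval -0.91 to 0.094), 0.18 ± 0.23 for LMC radial minus C3-C5 GFP-only (adjusted p = 0.714) and -0.24 ± 0.21 for phrenic minus C3-C5 GFP-only (adjusted p = 0.745).

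Chrnb2 measured 8.17, 8.72, 9.08 and 8.46 in phrenic, 9.13, 9.03 and 9.05 in LMC radial and 9.44, 9.32, 9.35 and 9.08 in C3-C5 GFP-only arrays. The phrenic arrays were the lowest apart from replicate 3, which lay within the LMC radial range. Phrenic minus C3-C5 GFP-only was -0.69 ± 0.17 (adjusted p = 0.079) and phrenic minus LMC radial -0.46 ± 0.19 (adjusted p = 0.176), neither passing, and LMC radial minus C3-C5 GFP-only was -0.23 ± 0.19 (adjusted p = 0.531). Without phrenic replicate 3 the first was -0.85 with an adjusted p of 0.0176 and the second -0.62 with an adjusted p of 0.0489. Among the alternatives the first passed in 4 of 27 and the second in 1 of 26. With the Actb difference as a covariate, phrenic minus C3-C5 GFP-only was -0.77 with an adjusted p of 0.027.

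Chrna7 encodes α7, which can form a receptor of a single subunit type. Its values were 8.57, 8.39, 8.46 and 8.29 in phrenic, 8.02, 7.90 and 8.22 in LMC radial and 7.88, 8.59, 8.76 and 8.81 in C3-C5 GFP-only arrays. The LMC radial arrays lay below the phrenic ones and below all C3-C5 GFP-only arrays but replicate 1. The differences were 0.38 ± 0.20 for phrenic minus LMC radial (adjusted p = 0.304), -0.47 ± 0.20 for LMC radial minus C3-C5 GFP-only (adjusted p = 0.234) and -0.08 ± 0.19 for phrenic minus C3-C5 GFP-only (adjusted p = 0.923). Without C3-C5 GFP-only replicate 1 the LMC radial difference from C3-C5 GFP-only was -0.68 with an adjusted p of 0.0246. It passed in 2 of 26 alternatives. The other probe sets of Chrna4, Chrna7 and Chrnb2 passed in no comparison between types. The second Chrnb2 probe set had -0.20 for phrenic minus C3-C5 GFP-only. For phrenic minus LMC radial it had 0.27 ± 0.32, a sign opposite to that of the first.

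**Figure D4:**
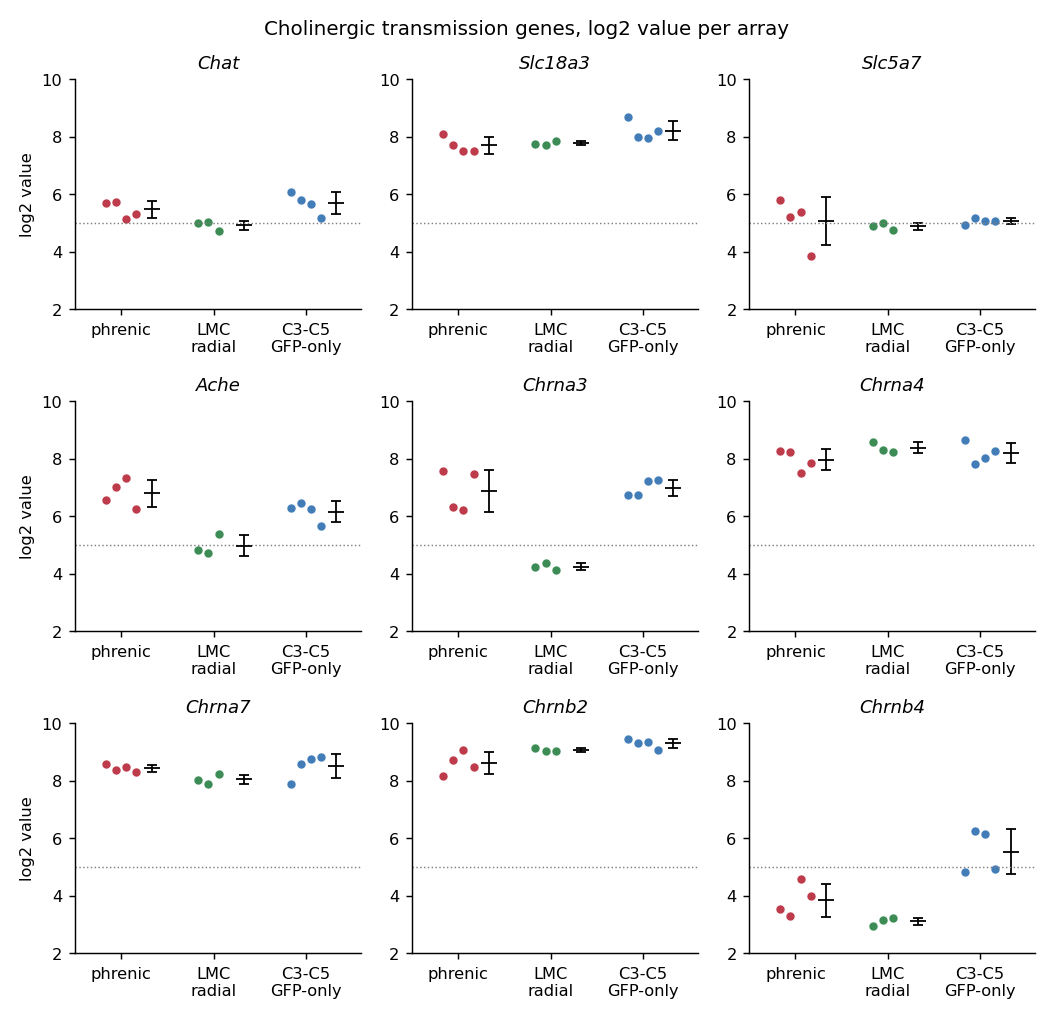
Log2 value of each of the 9 measured members on every array (points), with the mean ± SD of each type beside them and a dotted line at 5. The 3 LMC radial arrays are lowest for Ache and Chrna3, the 4 C3-C5 GFP-only arrays highest for Chrnb4, and the 3 types overlap for Slc5a7 and Chrna4.

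Each cell type was also set against the others together, as the series design does, here against the plain average of both other type means. Against that mean 2 members were higher in phrenic neurons, Ache by 1.22 ± 0.23 (limma adjusted p = 0.0132) and Chrna3 by 1.27 ± 0.27 (adjusted p = 0.0252), where 3.85% of all probe sets passed. In LMC radial neurons 3 members were lower, Chrna3 by -2.69 ± 0.29 (adjusted p = 0.000454), Ache by -1.50 ± 0.25 (adjusted p = 0.00514) and Chrnb4 by -1.59 ± 0.35 (adjusted p = 0.0225), where 7.02% passed. In C3-C5 GFP-only neurons 2 were higher, Chrnb4 by 2.06 ± 0.33 (adjusted p = 0.0171) and Chrna3 by 1.42 ± 0.27 (adjusted p = 0.036), where 0.973% passed. Neither phrenic difference, nor that of Chrna3 in C3-C5 GFP-only neurons, held against each other type: each of these averages includes the LMC radial arrays. With the Actb difference as a covariate Ache had 1.01 in phrenic (adjusted p = 0.0633) and -1.21 in LMC radial neurons (adjusted p = 0.065), and Chrnb4 had -0.90 in LMC radial neurons (adjusted p = 0.156). With the mesenchyme mean, phrenic Chrna3 had 1.06 (adjusted p = 0.243), and in C3-C5 GFP-only neurons Chrna3 had 1.72 (adjusted p = 0.257) and Chrnb4 2.75 (adjusted p = 0.081). The phrenic Chrna3 call was lost without phrenic replicate 1, any LMC radial array, or C3-C5 GFP-only replicate 1 or 2 (adjusted p = 0.051 to 0.0598). It was also lost with quantile normalization (1.22, limma adjusted p = 0.0519). The Chrnb4 call was lost in LMC radial neurons without any one LMC radial array (0.0729 to 0.0945), and in C3-C5 GFP-only neurons without replicate 2 (0.0703) or 3 (0.0839) of that type. With values below 5 raised to 5 these 2 differences were -0.30 (adjusted p = 1) and 0.60 (adjusted p = 0.619). The Chrna3 difference of C3-C5 GFP-only neurons had a limma adjusted p of 0.0548 with replicate number as a block and 0.0625 with quantile normalization. That call was also lost without any single LMC radial array (0.0709 to 0.0861) or any single C3-C5 GFP-only array (0.063 to 0.159).

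For the 3 genes of synthesis, loading and uptake, the genes nearest in pattern were found as the smallest root mean square difference of centred log2 values over the 11 arrays. Candidates had a mean of at least 6 and an SD over arrays above a limit set well below that of the gene itself, so flatter genes could qualify. Nearest to Chat, over 6044 candidates with a median difference of 0.482, were Dmac2l (0.197), Car11 (0.203), Slco3a1 (0.205), Mpp2 (0.21) and Otub2 (0.216). Nearest to Slc18a3 were Tfb2m (0.16), Leo1 (0.17), Tmem9 (0.178), Srr (0.179) and Gpat4 (0.188), and nearest to Slc5a7 were Scp2 (0.161), Wwp1 (0.172), Lsm12 (0.178), Map1b (0.181) and Armc6 (0.183). Chat and Slc18a3 differed by 0.348 on this measure.

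Among the other nicotinic subunits, 10 of 11 were measured, and 8 of the 10 had a mean below 5. Between phrenic and C3-C5 GFP-only neurons 2 were lower in phrenic and 0 higher, where 1.96% of all probe sets passed. In each of the other comparisons between types 0 passed (3 at an unadjusted p under 0.05). There 6.61% of all probe sets passed between phrenic and LMC radial and 3.76% between LMC radial and C3-C5 GFP-only. The list medians were -0.024 for phrenic minus C3-C5 GFP-only, -0.23 for phrenic minus LMC radial and 0.17 for LMC radial minus C3-C5 GFP-only, where all probe sets had -0.00038, -0.013 and 0.0035. Chrna5, the α5 subunit, joins receptors that hold α3 and β4, and its gene precedes Chrna3 and Chrnb4 on chromosome 9 with a span that overlaps that of Chrna3 on the opposite strand. It measured 4.41, 4.91, 4.37 and 4.05 in phrenic and 5.54, 6.00, 6.25 and 5.82 in C3-C5 GFP-only arrays, with 4.85, 4.76 and 5.44 in LMC radial arrays. Chrna5 was lower in phrenic than in C3-C5 GFP-only neurons by -1.47 ± 0.22, at least 1.87-fold (limma adjusted p = 0.00613), and its second probe set by -1.27 ± 0.22 (adjusted p = 0.0135). With the mesenchyme marker mean as a covariate the difference was -0.85 (adjusted p = 0.379). Thus of the 3 neighbouring genes, Chrna5 and Chrnb4 were lower in phrenic than in C3-C5 GFP-only neurons while Chrna3 did not pass, and the differences between the genes were not tested. The second gene, Chrna2, was lower by -0.90 ± 0.18 (adjusted p = 0.0301) with means of 3.11 in phrenic and 4.01 in C3-C5 GFP-only arrays, both below 5. Its call was lost without phrenic replicate 1, 2 or 3 or C3-C5 GFP-only replicate 1, 2 or 3 (0.0582 to 0.0948) and had an adjusted p of 0.114 with the replicate block in those 2 types alone.

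Of the muscarinic receptors other than Chrm2, 3 of 4 were measured, all with means below 5, and 0 passed in any comparison between types. Their medians were -0.28 for phrenic minus LMC radial, 0.21 for LMC radial minus C3-C5 GFP-only and -0.068 for phrenic minus C3-C5 GFP-only. Genes of choline and acetyl-CoA supply, 9 of 10 measured, likewise gave 0 passing, with limma adjusted p-values of 0.103 or more and medians of 0.049, -0.14 and -0.043 in the same order. At an unadjusted p under 0.05, 0 of the 3 and 1 of the 9 passed between phrenic and LMC radial, 0 and 2 between LMC radial and C3-C5 GFP-only, and 0 and 0 between phrenic and C3-C5 GFP-only. At an adjusted p under 0.05, 6.61%, 3.76% and 1.96% of all probe sets passed in these comparisons.

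Of 3 esterases and anchors, 2 were higher in phrenic than in LMC radial neurons and 1 higher than in C3-C5 GFP-only neurons, with 0 lower, and 0 passed between LMC radial and C3-C5 GFP-only (1 at an unadjusted p under 0.05). In these comparisons 6.61%, 1.96% and 3.76% of all probe sets passed. The list medians were 0.90, 0.55 and -0.22 in that order. Prima1, which anchors acetylcholinesterase in the membrane of neurons, measured 7.46, 7.68, 7.70 and 7.12 in phrenic, 6.44, 6.68 and 6.68 in LMC radial and 7.05, 7.004, 6.97 and 6.74 in C3-C5 GFP-only arrays. It was higher in phrenic than in LMC radial neurons by 0.90 ± 0.15, 1.86-fold (adjusted p = 0.00622), the comparison in which Ache was also higher. Its second probe set had 0.55 ± 0.33 and did not pass (adjusted p = 0.351). Bche, butyrylcholinesterase, measured 5.74, 4.65, 5.41 and 6.995 in phrenic, 3.92, 3.60 and 4.16 in LMC radial and 3.36, 3.48, 3.78 and 3.73 in C3-C5 GFP-only arrays. Bche was higher in phrenic by 1.81 ± 0.42 over LMC radial (adjusted p = 0.0276) and by 2.11 ± 0.39 over C3-C5 GFP-only neurons (adjusted p = 0.0189), each at least 1.73-fold. With values below 5 raised to 5 both differences were 0.79 (adjusted p = 0.559 and 0.585). Its second probe set had 1.19 (adjusted p = 0.0461) and 1.21 (adjusted p = 0.0652), and the last one 0.066 (0.783) and 0.038 (0.94). Its highest array is phrenic replicate 4, also the highest in progenitor and mesenchyme markers. With the mesenchyme mean as a covariate the difference from C3-C5 GFP-only was 1.23 (adjusted p = 0.577), and with the Actb difference that from LMC radial was 1.71 (adjusted p = 0.166). The Bche difference from C3-C5 GFP-only lost its call without phrenic replicate 1 or any C3-C5 GFP-only array (adjusted p = 0.0506 to 0.0651) and had an adjusted p of 0.0785 with the replicate block in those 2 types. Its difference from LMC radial lost its call without any LMC radial array (0.062 to 0.103).

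Of 12 genes of receptor assembly and modulation, 3 were lower in phrenic than in LMC radial neurons and 2 lower than in C3-C5 GFP-only neurons, with 0 higher in either. Between LMC radial and C3-C5 GFP-only 1 was higher and 0 lower, and the list medians were -0.088, 0.065 and 0.0099 in that order. The shares of all probe sets that passed were 6.61%, 1.96% and 3.76%. The genes that passed, Lypd1, Lypd6 and Lypd6b, belong to the Ly6 family, some of whose members bind nicotinic receptors and alter their activity. Lypd1 (Lynx2) measured 6.27, 6.69, 6.78 and 6.70 in phrenic, 8.92, 9.08 and 8.92 in LMC radial and 9.93, 9.29, 9.31 and 9.23 in C3-C5 GFP-only arrays, so all phrenic arrays were the lowest. Lypd1 was lower in phrenic by -2.37 ± 0.18 from LMC radial, 5.15-fold (adjusted p = 3.47e-05), and by -2.83 ± 0.17 from C3-C5 GFP-only neurons, 7.11-fold (adjusted p = 1.25e-05). Both differences passed in every alternative, and those of its second probe set, -2.56 and -3.61, also passed. Lypd6b measured 3.67, 4.10, 3.88 and 3.58 in phrenic, 6.09, 6.63 and 6.90 in LMC radial and 5.89, 5.73, 5.30 and 5.52 in C3-C5 GFP-only arrays. It was lower in phrenic by -2.73 ± 0.21 from LMC radial, at least 2.91-fold (adjusted p = 3.52e-05), and by -1.80 ± 0.20 from C3-C5 GFP-only neurons, at least 1.53-fold (adjusted p = 0.000871). With values below 5 raised to 5 the last had -0.61 and an adjusted p of 0.233. Lypd6b was also higher in LMC radial than in C3-C5 GFP-only neurons by 0.93 ± 0.21 (adjusted p = 0.0371), a call lost without LMC radial replicate 2 (0.115) or 3 (0.128) or C3-C5 GFP-only replicate 2 (0.0835), 3 (0.116) or 4 (0.0797). Lypd6 was lower in phrenic than in LMC radial neurons by -1.90 ± 0.50 (adjusted p = 0.0469), and that call was lost without phrenic replicate 1 or 2, any LMC radial array or any C3-C5 GFP-only array (0.0573 to 0.14).

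For the G proteins and channels through which M2 receptors act, 8 of 8 genes were measured. Between phrenic and LMC radial 2 were higher and 2 lower in phrenic, between phrenic and C3-C5 GFP-only 1 was lower in phrenic, and between LMC radial and C3-C5 GFP-only 1 was higher in LMC radial, with medians of -0.04, -0.0049 and 0.0077. In the same order 6.61%, 1.96% and 3.76% of all probe sets passed. Rgs4, which shortens G protein signals, measured 9.41, 9.21, 8.86 and 9.35 in phrenic, 10.74, 10.70 and 10.66 in LMC radial and 9.98, 9.85, 9.95 and 9.68 in C3-C5 GFP-only arrays, with no overlap between types. It was lower in phrenic than in LMC radial by -1.49 ± 0.14, 2.82-fold (adjusted p = 0.000139), and higher in LMC radial than in C3-C5 GFP-only neurons by 0.84 ± 0.14 (adjusted p = 0.00996). Phrenic minus C3-C5 GFP-only was -0.66 ± 0.13 (adjusted p = 0.0278), a call lost without phrenic replicate 2 (0.0538) or C3-C5 GFP-only replicate 1 (0.0805), 2 (0.0812) or 3 (0.0948) and with the replicate block (0.0541 in all arrays, 0.151 in those 2 types). Kcnj3, a potassium channel subunit opened by G proteins, was lower in phrenic than in LMC radial neurons by -1.33 ± 0.31 (adjusted p = 0.0299), a call lost without any one LMC radial array (0.0531 to 0.117), with values below 5 raised to 5 (-0.95, adjusted p = 0.0575) and with its probe sets averaged (-0.52, adjusted p = 0.0633). The other 3 Kcnj3 probe sets did not pass, at -0.70, -0.03 and -0.03. Gnai1 and Gnao1, G protein α subunits, were higher in phrenic than in LMC radial neurons by 0.51 ± 0.11 (adjusted p = 0.0221) and 0.45 ± 0.12 (adjusted p = 0.0449). The other Gnai1 probe sets passed in the same direction, at 0.86 and 0.999. The other Gnao1 probe sets had the opposite sign and did not pass, at -0.23 and -0.36. The Gnai1 call was lost without phrenic replicate 2 or 3 or any LMC radial array (0.0506 to 0.0856), and the Gnao1 call without phrenic replicate 1, 2 or 3, any LMC radial array, or C3-C5 GFP-only replicate 1, 2 or 3 (0.0613 to 0.149).

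Of 10 regulators of cholinergic genes, 3 were higher in phrenic than in LMC radial neurons, 6 were lower in LMC radial than in C3-C5 GFP-only neurons and 4 were lower in phrenic than in C3-C5 GFP-only neurons. Of all probe sets 6.61%, 3.76% and 1.96% passed in these comparisons. The list medians were 0.40, -0.99 and -0.084 in the same order, and 2 of the 10 had a mean below 5. Isl1, which in motor neurons acts with Lhx3 on cholinergic genes, was lower in LMC radial than in C3-C5 GFP-only neurons by -2.36 ± 0.45 (adjusted p = 0.0177) and higher in phrenic than in LMC radial neurons by 2.69 ± 0.45 (adjusted p = 0.00521). The other regulators that passed were Lmo4 and Mnx1, higher in phrenic than in LMC radial neurons, then Isl2, Lhx3, Lhx4, Lmo4 and Mnx1, lower in LMC radial than in C3-C5 GFP-only neurons, and Isl2, Lhx3, Lhx4 and Lmo4, lower in phrenic than in C3-C5 GFP-only neurons, where the replicate block in those 2 types gave Lmo4 an adjusted p of 0.0548. The Isl1 call against C3-C5 GFP-only was lost without LMC radial replicate 2 (0.058) or C3-C5 GFP-only replicate 2 (0.0545) or 3 (0.0602). The LMC radial arrays of Isl1 spread from 8.26 to 10.92.

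Of 12 genes that mark other transmitters, 10 were measured, and 7 of the 10 had a mean below 5. Of these 1 was higher in phrenic than in LMC radial neurons, 1 lower in LMC radial than in C3-C5 GFP-only neurons and 1 lower in phrenic than in C3-C5 GFP-only neurons, with medians of 0.87, -0.07 and 0.15. Over all probe sets 6.61%, 3.76% and 1.96% passed in these comparisons. Slc18a2, which loads monoamines into vesicles, measured 7.91, 8.32, 8.18 and 7.51 in phrenic, 4.24, 5.03 and 4.52 in LMC radial and 6.61, 7.40, 7.49 and 7.43 in C3-C5 GFP-only arrays. Like Chrna3, all of its LMC radial arrays lay below every other array. Slc18a2 was higher in phrenic than in LMC radial neurons by 3.39 ± 0.27, at least 7.85-fold (adjusted p = 4.2e-05), and lower in LMC radial than in C3-C5 GFP-only neurons by -2.64 ± 0.27, at least 4.67-fold (adjusted p = 0.000699). Th, tyrosine hydroxylase, was lower in phrenic than in C3-C5 GFP-only neurons by -1.64 ± 0.25 (adjusted p = 0.00613), with means of 4.15 and 5.79. With values below 5 raised to 5 the Th difference was -0.79 with an adjusted p of 0.237.

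Among the genes of these lists, the mesenchyme mean as a covariate also ended the calls between phrenic and C3-C5 GFP-only of Chrna2, Lypd6b, Rgs4, Isl2, Lmo4 and Th (adjusted p = 0.102 to 0.451), and those between LMC radial and C3-C5 GFP-only of Lypd6b, Rgs4 and Isl2 (0.0633 to 0.0998). The Actb difference ended those between phrenic and LMC radial of Prima1, Gnai1 and Gnao1 (0.0648 to 0.223), and those between LMC radial and C3-C5 GFP-only of Lypd6b, Rgs4, Isl1 and Isl2 (0.0541 to 0.122). The Lypd1 differences of phrenic from each other type, and the Slc18a2 differences of LMC radial from each, passed with either covariate. Against C3-C5 GFP-only arrays, whose mesenchyme means overlap neither other type, the mesenchyme covariate and cell type cannot be told apart.

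**Figure D5:**
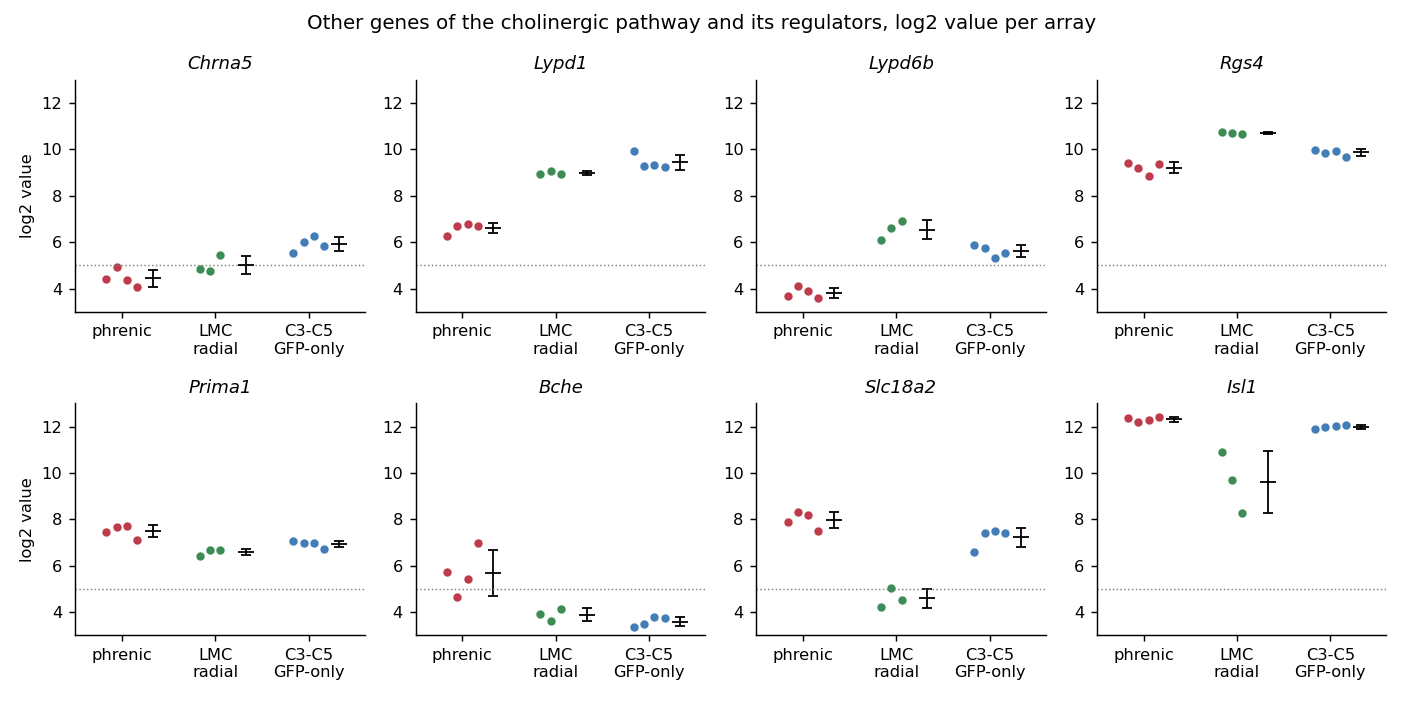
Log2 value per array (points), with the mean ± SD of each type, of 8 other genes of the pathway and its regulators, with a dotted line at 5. Lypd1 and Lypd6b are lowest in all 4 phrenic arrays, Slc18a2 is lowest in the 3 LMC radial arrays, and Rgs4 is highest there.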

How the data were processed

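RNA of 11 samples, 1 array each, was measured on Affymetrix arrays. The deposited values are log2 values per probe set, made with RMA per the submitters' processing notes, with no version stated. RMA as a method corrects background, normalizes by quantiles and summarises probes. The deposited arrays still differed in their medians (4.48 to 4.63) and 25th percentiles (3.18 to 3.38), and the medians were lowest in the 3 LMC radial arrays. Quantile normalization of the deposited values was therefore among the alternatives. Probe sets were named by GEO's platform annotation, with symbols checked through gene IDs (0 changed). Of 45101 probe sets 64 controls were left out and no other filter was used. A mean per cell type was fitted in limma 3.58.1 (R 4.3.3; 8 residual and 2.92 prior degrees of freedom) to all 11 arrays, with two-sided moderated tests and Benjamini-Hochberg adjustment over 45037 probe sets in each of 6 comparisons. The model was tested on simulated data. The members and lists were chosen with earlier results of these data known. Members are named with all probe sets, and genes of the pathway lists are named where they pass between types or a result turns on them (marker genes were named after their values were seen), beside the 5 genes nearest in pattern to each of Chat, Slc18a3 and Slc5a7. Replicates were not duplicates (15 pairs, correlations 0.965 to 0.996). The pairing of replicate numbers was checked by correlating deviations from type means. Same-numbered phrenic and C3-C5 GFP-only arrays gave 0.125 to 0.224. Other numbers of these types gave 0.179 to 0.28 where both arrays had the lower, or both the higher, 25th percentile. They gave -0.254 to -0.125 where the arrays differed in this. Every same-numbered pair was alike in it, so these values do not show a pairing by number apart from the array set. LMC radial arrays gave -0.0835 to 0.0499 with the same numbers. The reported fits do not use this pairing, which enters only through the replicate block among the alternatives. Alternatives were other normalizations, a floor at 5, dim probe sets left out, other variance settings, array weights, the replicate block, 2-type fits, gene means, the probe set with the smallest p, array sets, covariates and leaving out each array. The number of arrays limits the precision.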

Additional observations from a re-analysis of the deposited data

Results flagged for a closer look

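Among 92 groups of 4 arrays checked for a single distant array, 5 were found, where chance gives about 1 in 20. The third Chrna3 probe set was 3.70 in phrenic replicate 1, against 2.79 to 2.88 in the other phrenic arrays, all below 5. Lypd1 was 6.27 in phrenic replicate 1, against 6.69 to 6.78 in the other phrenic arrays. It was 9.93 in C3-C5 GFP-only replicate 1, against 9.23 to 9.31 in the others of that type, so in Lypd1 the distant arrays lay in opposite directions. Gnao1 was 9.77 in C3-C5 GFP-only replicate 4, against 9.985 to 10.002 in the others. Slc18a2 was 6.61 in C3-C5 GFP-only replicate 1, against 7.40 to 7.49 in the others, which still left that array above every LMC radial array.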

How the results depend on the processing

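Of the 13 member differences that passed, 262 of 328 repeats under an alternative still passed in the same direction, and none changed sign. These are overlapping comparisons of Ache, Chrna3 and Chrnb4, and the repeat with the smallest p could not lose a call. Of the 41 member differences that did not pass, 25 of 1052 repeats passed and 56 had the other sign. The number of passing members moved beyond 1.5 times as follows. Between phrenic and C3-C5 GFP-only (1 member) it was 0 with dim probe sets left out, values below 5 raised to 5, only the 2 types, the 7 arrays with the higher 25th percentile, the mesenchyme covariate, or a replicate block in these types alone. It was 2 with the array set as a term, the Actb covariate, or phrenic replicates 3 and 4 left out together, an alternative chosen after seeing the data, as was the last block. Between phrenic and LMC radial (2) it was 1 in the 7 arrays. Between LMC radial and C3-C5 GFP-only (3) it was 0 with the floor at 5 and 5 with array weights. Against the mean of the other types, phrenic (2) gave 1 with quantile normalization, the floor, gene means, the 7 arrays or the mesenchyme covariate, LMC radial (3) gave 1 with the Actb covariate, and C3-C5 GFP-only (2) gave 1 with quantile normalization, dim probe sets left out, gene means or the replicate block, and 0 with the floor, the 7 arrays or the mesenchyme covariate. Leaving out 1 array gave 0 to 2, 2 to 3 and 2 to 4 members in the comparisons between types in this order, and 1 to 3, 2 to 4 and 0 to 2 against the mean of the others. The replicate block over all arrays, where LMC radial arrays share only a number, gave Chat an adjusted p of 0.0338 between phrenic and LMC radial and 0.0188 between LMC radial and C3-C5 GFP-only. Gnao1 turned to -0.046 between phrenic and LMC radial and to -0.0053 for phrenic against the mean of the others when probe sets of a gene were averaged, since its probe sets differ. Of 33 passing differences of pathway list genes between types (marker lists not included), 9 passed in every alternative, and 703 of 832 repeats passed. Over all probe sets the counts were lowest in the 7 arrays, with 127 (882 as reported), 778 (2979) and 98 (1694) in the comparisons between types and 511 (1733), 551 (3163) and 24 (438) against the others. The highest were 1300, 4266, 6685, 2368, 6864 and 1758 in the same order. Except where stated, the cause was not tested. Values below 5 limit what Chrnb4, Chrna2 and Slc5a7 can show.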
